A study of Mus musculus with 12 samples.

Results

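The glycolysis genes described here are 10 genes chosen by symbol: Slc2a1, Hk1, Hk2, Hk3, Pfkfb3, Pfkl, Pfkp, Pkm, Ldha and Slc16a3. The choice was made with earlier results of these data known. They are 10 of the 55335 genes listed in each expression table, and all 10 passed the filter on low counts that left 14357 genes for testing. Glycolysis splits glucose into pyruvate and yields ATP without oxygen. Glucose enters through GLUT transporters, hexokinases trap it by phosphorylation, and phosphofructokinase makes the committed step, which the products of the PFKFB genes regulate. Pyruvate kinase makes pyruvate, lactate dehydrogenase turns it into lactate, and monocarboxylate transporters carry lactate out of the cell. Dendritic cells are known to raise glycolytic flux soon after they sense bacterial products, partly by acting on enzymes that are already there, so mRNA levels report on only one layer of the pathway.

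The RNA came from mouse C57BL/6 bone marrow-derived dendritic cells (BMDC) grown for 6 days with GM-CSF, with the medium changed every 2 days. All 4 groups carried the CreER transgene, a tamoxifen-inducible recombinase, and had intact Ctcf, so the group named WT was CreER-bearing as well. WT received neither agent, WTL received lipopolysaccharide (LPS, an outer-membrane component of Gram-negative bacteria) at 100 ng/ml for 3 h, WT + JSH23 received JSH-23 at 100 µM for 3 h, and WTL + JSH23 received the same JSH-23 pre-treatment and then LPS. JSH-23 is a small molecule that keeps the NF-κB subunit RelA out of the nucleus. Each group held 3 libraries. No source used here states if the groups without JSH-23 were given its solvent, and the methods, which describe a tamoxifen treatment from the first day of culture, do not say whether these cells had it. The methods give floating cells selected on CD11c as the source, from mice of both sexes.

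Libraries held 24664724 to 34837847 expected counts. Libraries without JSH-23 were numbered 4 to 6 and libraries with JSH-23 were numbered 1 to 3, and the labels name no batch. The paper lists further WT and WTL libraries numbered 1 to 3, so the numbers by themselves name no culture round. If the groups with and without JSH-23 were cultured apart, that difference and the effect of JSH-23 cannot be told apart. WTL + JSH23 replicate 3 stood apart from its group. The chi-square of its counts against the other 2 libraries was 8.19 and 9.12 per degree of freedom, against 2.32 to 4.50 for every other pair within a group. Each member whose call depends on that library is given with and without it. All 12 dendritic cell markers passed the filter, with highest levels from 3.42 TPM (a length-normalised share of all transcripts) for Flt3, a cytokine receptor, to 14374 TPM for Cd74, the chaperone of MHC class II. T, B and NK cell markers summed to at most 3.16 TPM in any library.

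Per transcript length, pyruvate kinase mRNA was the most abundant of the 10 in untreated cells. In WT, Pkm averaged 624 TPM ± 20.6 (SD, n = 3), Ldha 348 ± 10.3 and Pfkfb3 233 ± 12.1. Pfkp followed at 126 TPM ± 4.21, Hk3 at 98.7 ± 2.54 and Slc16a3 at 77.1 ± 10.9. The lower end was formed by Hk1 at 47.5 TPM ± 1.62, Pfkl at 39.9 ± 4.21, Slc2a1 at 34.8 ± 2.62 and Hk2 at 24.2 ± 2.31. Neighbours in this order did not overlap across the 3 WT libraries, except Pfkl and Slc2a1, whose ranges were 35.1 to 42.8 and 31.9 to 36.7 TPM. In WTL + JSH23 the order shifted: Slc2a1, at 50.9 to 54.0 TPM, stood above Slc16a3, at 42.3 to 50.8 TPM, and above Hk1, at 30.3 to 33.9 TPM.

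Counts scaled for library size (CPM, with TMM scaling) were compared between groups with edgeR's quasi-likelihood test, Benjamini-Hochberg adjusted over all 14357 genes, and a gene was called at an adjusted p below 0.05. LPS without JSH-23 (WTL against WT) raised 3 of the 10 genes (Slc2a1, Hk2 and Pfkp) and lowered 3 (Hk3, Pkm and Slc16a3). Among all genes tested, 31.0% were called higher and 34.7% lower in that comparison, and 83.7% of the 3201 genes at least as abundant as the lowest member were called in either direction. LPS after JSH-23 (WTL + JSH23 against WT + JSH23) again raised 3 (Slc2a1, Hk2 and Pfkp) and lowered 3 (Pkm, Ldha and Slc16a3), beside 27.4% and 27.1% of all genes and 73.8% of the abundant ones. The 6 of 10 called in each LPS comparison are a smaller share than that of the abundant genes.

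More of the 10 genes were called with JSH-23 than with LPS, a difference in counts that was not tested. Without LPS (WT + JSH23 against WT), 4 of the 10 genes rose (Slc2a1, Hk3, Pfkp and Pkm) and 5 fell (Hk1, Hk2, Pfkfb3, Pfkl and Ldha). The shares called among all genes were 18.8% higher and 22.1% lower, and 66.3% of the abundant genes were called. Under LPS (WTL + JSH23 against WTL), 3 rose (Slc2a1, Hk3 and Pkm) and the same 5 fell, beside 24.5% and 24.2% of all genes and 71.9% of the abundant ones. These 2 comparisons share no library, and 8 of the 10 genes were called in both with the same sign and 0 with opposite signs, beside 28.5% of all genes and 50.8% of the abundant ones called in both with the same sign. Both set libraries with JSH-23 against libraries without it. Any difference between culture rounds that separated these libraries would enter both with the same sign. The LPS comparisons, which also share no library with each other, had 5 genes called in both with the same sign and 0 with opposite signs, beside 47.3% and 66.2%.

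The changes were moderate in size. On the TMM scale with all 12 libraries, none of the 10 genes passed a change of more than 2-fold together with the test in any comparison. Of all genes, 16.4%, 10.3%, 7.00% and 5.37% did so for LPS, LPS after JSH-23, JSH-23 under LPS and JSH-23 without LPS. The largest member change, that of Hk3 between WTL and WTL + JSH23, depended on the scale. It was past 2-fold by limma on log2(TPM + 1), at a log2 change of 1.06 (adjusted p = 2.06e-06). With TMM it ranged from 0.777 to 1.009 when 1 library was left out. The median absolute log2 fold change of the 10 genes was 0.43 for JSH-23 without LPS, against 0.17 for the abundant genes, and 0.33 under LPS, against 0.21. For LPS without JSH-23 it was 0.25, against 0.30, and for LPS after JSH-23 it was 0.15, against 0.22. Since the 10 genes were chosen with earlier results known, their sizes and shares beside those of other genes are descriptions and not tests. CPM values of the groups compared did not overlap for 6 genes in each LPS comparison (background 69.9% without and 59.1% after JSH-23), for 8 under JSH-23 with LPS (54.8%) and for 9 under JSH-23 without LPS (51.5%).

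**Figure D1:**
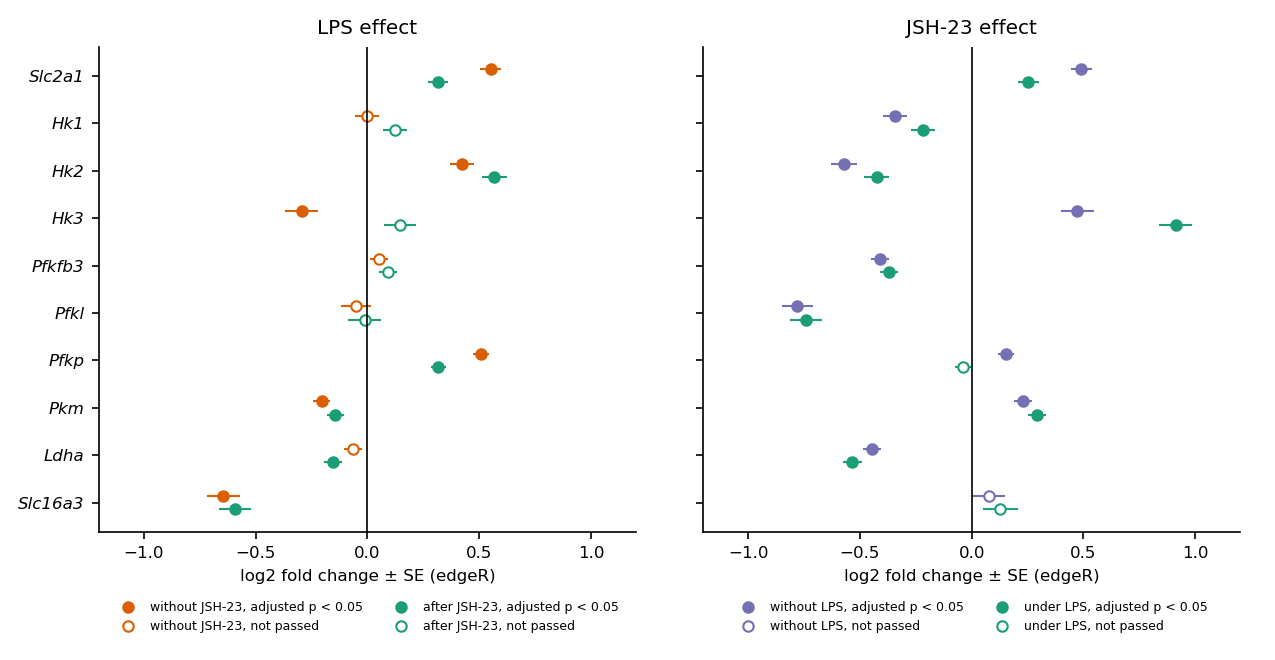
Log2 fold change of each gene with its standard error (edgeR), for LPS on the left and JSH-23 on the right; filled points passed an adjusted p below 0.05 and open points did not. In the JSH-23 panel 8 genes have filled points on the same side of 0 in both comparisons, and no point lies beyond a log2 change of 1.

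Slc2a1 encodes GLUT1, the widely expressed basal glucose carrier (GRCm38 chr4:119108711-119137983, plus strand). It stood at 65.8, 58.0 and 65.0 CPM in WT and at 92.8, 92.3 and 91.5 CPM in WTL. With JSH-23 it stood at 88.1, 85.2 and 91.9 CPM in WT + JSH23 and at 112, 108 and 110 CPM in WTL + JSH23. The 4 groups did not overlap except that 91.9 CPM in WT + JSH23 fell among the WTL values. LPS raised it by 0.55 ± 0.05 (log2, SE; adjusted p = 1.2e-09) without JSH-23 and by 0.31 ± 0.05 (adjusted p = 5.37e-06) after it. JSH-23 raised it by 0.49 ± 0.05 without LPS (adjusted p = 1.85e-08) and by 0.25 ± 0.05 under LPS (adjusted p = 9.07e-05). The highest level was therefore in cells that received both agents.

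Slc2a1 was a minor part of the glucose transporter mRNA. Slc2a6, which encodes GLUT6, a transporter found mostly on intracellular membranes, made up 92.9% ± 0.31 (SD, n = 3) of the TPM of Slc2a1, Slc2a3, Slc2a6 and Slc2a8 in WT and 94.7% ± 0.24 in WTL. Its share was 86.3% ± 0.55 in WT + JSH23 and 91.2% ± 0.46 in WTL + JSH23. Slc2a6 moved with LPS as Slc2a1 did, by 0.92 without JSH-23 (adjusted p = 8.05e-15) and 0.99 after it (adjusted p = 5.13e-15). With JSH-23 the paired transporters went opposite ways: Slc2a6 fell by 0.61 without LPS (adjusted p = 3.44e-11) and by 0.54 under LPS (adjusted p = 1.52e-10). Slc2a1 accordingly held 6.39% ± 0.40 of the transporter TPM in WT and 12.5% ± 0.49 in WT + JSH23, and 5.03% ± 0.25 in WTL and 8.32% ± 0.42 in WTL + JSH23. A permutation test of 3 libraries against 3 cannot go below p = 0.10, so shares are given without a test.

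The hexokinase genes were divided in direction. Hk1 encodes the mitochondria-bound housekeeping isozyme (GRCm38 chr10:62268855-62379908, minus strand). It stood at 92.2, 93.4 and 91.1 CPM in WT and at 93.5, 92.4 and 90.7 CPM in WTL, which overlapped entirely. In cells given JSH-23 it lay at 67.1, 73.3 and 78.0 CPM in WT + JSH23 and at 79.1, 73.3 and 85.4 CPM in WTL + JSH23, below every library without JSH-23. The log2 change with LPS was -0.00 ± 0.05 without JSH-23 (adjusted p = 0.989; 95% interval -0.10 to 0.10) and 0.12 ± 0.05 after it (adjusted p = 0.0611). The latter was called without WTL + JSH23 replicate 2, at 0.18 (adjusted p = 0.0112), or without WT + JSH23 replicate 3, at 0.17 (adjusted p = 0.0139). By limma on log2(TPM + 1) Hk1 was called lower with LPS in both cases, at -0.403 (adjusted p = 2.74e-05) and, after JSH-23, at -0.141 (adjusted p = 0.0401). JSH-23 lowered it by 0.34 ± 0.05 without LPS (adjusted p = 1.87e-05) and by 0.22 ± 0.05 under LPS (adjusted p = 0.00205; 0.0592 with limma on log2(TPM + 1)).

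Hk2 encodes the inducible isozyme, known to be induced through HIF-1 (GRCm38 chr6:82725025-82774454, minus strand). It stood at 67.1, 57.3 and 62.8 CPM in WT and at 87.4, 83.0 and 80.3 CPM in WTL. The JSH-23 libraries were at 39.6, 43.8 and 42.7 CPM in WT + JSH23 and at 61.6, 60.6 and 64.7 CPM in WTL + JSH23. In CPM every library with LPS was above every library of its control group, and LPS raised it by 0.42 ± 0.05 without JSH-23 (adjusted p = 6.74e-07) and by 0.57 ± 0.06 after it (adjusted p = 3.13e-08). In TPM, WTL overlapped WT, and by limma on log2(TPM + 1) the change without JSH-23 was not called, at 0.115 (adjusted p = 0.185). JSH-23 lowered it by 0.57 ± 0.06 without LPS (adjusted p = 3.61e-08) and by 0.43 ± 0.06 under LPS (adjusted p = 1.45e-06). Cells given both agents overlapped WT in CPM, at 60.6 to 64.7 against 57.3 to 67.1.

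Hk3 encodes the isozyme typical of myeloid cells (GRCm38 chr13:55005985-55021385, minus strand), and with JSH-23 it rose where Hk1 and Hk2 fell. It stood at 156, 166 and 160.1 CPM in WT and at 129, 133 and 131 CPM in WTL, without overlap. After JSH-23 it stood at 214, 218 and 236 CPM in WT + JSH23 and at 236, 212 and 291 CPM in WTL + JSH23. All 6 libraries with JSH-23 were above all 6 without it. LPS lowered Hk3 by 0.29 ± 0.07 without JSH-23 (adjusted p = 0.00154), and the change after JSH-23 was 0.15 ± 0.07 (adjusted p = 0.0937). JSH-23 raised it by 0.47 ± 0.07 without LPS (adjusted p = 1.55e-05) and by 0.91 ± 0.07 under LPS (adjusted p = 1.23e-09), the largest change among the 10 genes.

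The 291 CPM of Hk3 belonged to WTL + JSH23 replicate 3, the library that stood apart. Without it, the Hk3 change with JSH-23 under LPS was 0.78 (adjusted p = 2.56e-12) and that with LPS after JSH-23 was 0.01 (adjusted p = 0.882). Without replicate 2 of that group, the LPS change after JSH-23 was 0.24 (adjusted p = 0.00266). The difference between the LPS effects with and without JSH-23, the interaction, was 0.44 ± 0.10 (adjusted p = 0.00504) with all libraries and 0.30 (adjusted p = 0.00157) without that one.

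As shares of the summed TPM of the 3 genes, which do not depend on how libraries are scaled, Hk3 held 57.9% ± 0.83 in WT (SD, n = 3), 50.1% ± 0.97 in WTL, 72.7% ± 0.58 in WT + JSH23 and 71.1% ± 3.17 in WTL + JSH23. Hk2 held 14.2% ± 1.48 in WT and 21.2% ± 1.41 in WTL, and 8.56% ± 0.40 in WT + JSH23 and 11.3% ± 1.86 in WTL + JSH23. Hk1 held 27.9% ± 0.66 in WT, 28.7% ± 0.63 in WTL, 18.7% ± 0.19 in WT + JSH23 and 17.6% ± 1.45 in WTL + JSH23. The 2 groups with JSH-23 did not overlap the 2 without it for Hk1 or Hk3. Hkdc1, another gene of the family, failed the filter and reached at most 0.06 TPM.

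**Figure D2:**
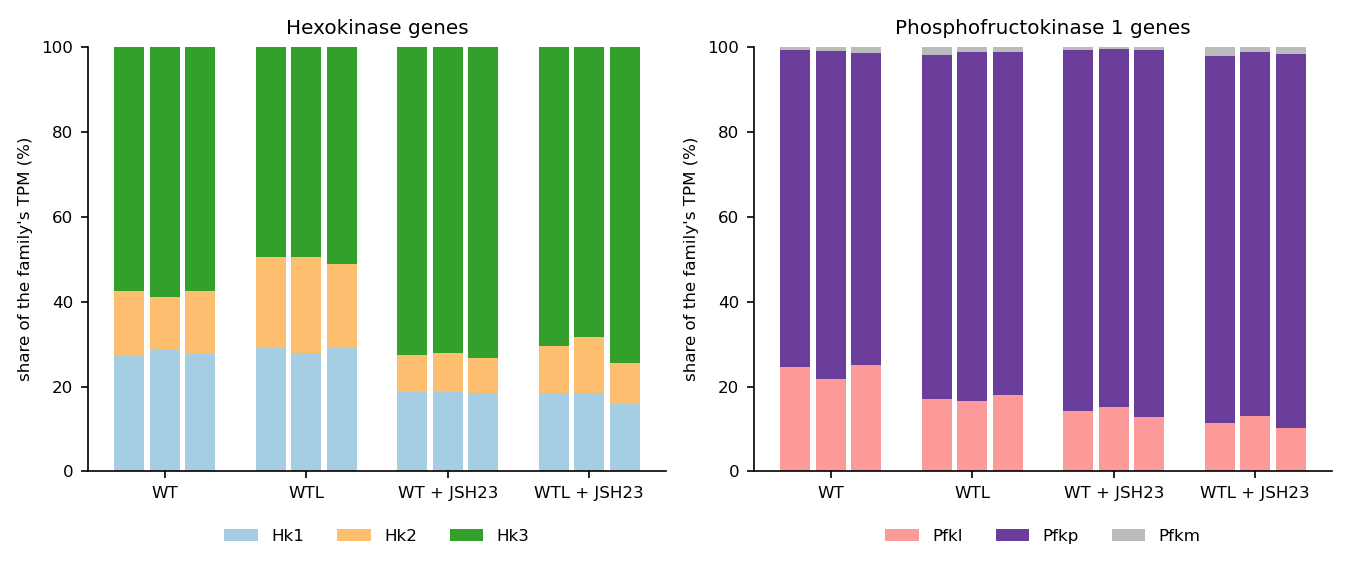
Share of summed TPM (%) within the hexokinase genes and the phosphofructokinase 1 genes, one bar per library, replicates in numerical order within each group. Hk3 widens from 57.9% in WT to 72.7% in WT + JSH23, and Pfkl narrows from 23.8% to 14.1%.

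Phosphofructokinase 1, the enzyme of the committed step, is built from liver, platelet and muscle type subunits. Pfkl, the liver type (GRCm38 chr10:77986947-78010083, minus strand), stood at 81.5, 64.2 and 77.5 CPM in WT and at 73.8, 69.5 and 72.0 CPM in WTL. Given JSH-23, it was at 43.5, 45.8 and 40.7 CPM in WT + JSH23 and at 43.9, 45.0 and 39.6 CPM in WTL + JSH23. No library with JSH-23 reached the lowest library without it. JSH-23 lowered Pfkl by 0.78 ± 0.07 without LPS (adjusted p = 7.51e-09) and by 0.74 ± 0.07 under LPS (adjusted p = 1.97e-08), the largest decreases among the 10 genes. The LPS changes were -0.05 ± 0.07 (adjusted p = 0.521; 95% interval -0.18 to 0.08) and -0.01 ± 0.07 (adjusted p = 0.895; 95% interval -0.16 to 0.13), and the first was called without WT replicate 5, at -0.15 (adjusted p = 0.0291), and by limma on log2(TPM + 1), at -0.413 (adjusted p = 0.00252).

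Pfkp, the platelet type (GRCm38 chr13:6579768-6648777, minus strand), responded mainly to LPS. It stood at 243, 242 and 239.8 CPM in WT and at 346, 350 and 335 CPM in WTL. With JSH-23 it stood at 263, 266 and 278 CPM in WT + JSH23 and at 326, 339.8 and 339.9 CPM in WTL + JSH23. LPS raised Pfkp by 0.51 ± 0.04 without JSH-23 (adjusted p = 4.91e-11) and by 0.32 ± 0.04 after it (adjusted p = 1.41e-07), and the groups did not overlap in either comparison. JSH-23 raised it by 0.15 ± 0.04 without LPS (adjusted p = 0.00132). Under LPS the JSH-23 change was -0.04 ± 0.04 (adjusted p = 0.425), with the opposite sign, 0.11 (adjusted p = 0.0172), by limma on log2(TPM + 1). Pitrm1 overlaps Pfkp on the opposite strand at up to 28.1 TPM, and the strand setting of the counting was not given in the sources used here.

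Pfkp carried most of the phosphofructokinase 1 mRNA throughout. Its share of the TPM of Pfkl, Pfkp and Pfkm was 75.2% ± 1.92 in WT (SD, n = 3), 81.4% ± 0.76 in WTL, 85.2% ± 1.13 in WT + JSH23 and 86.7% ± 1.10 in WTL + JSH23. Pfkl held 23.8% ± 1.75, 17.2% ± 0.80, 14.1% ± 1.23 and 11.6% ± 1.34 in the same order. Both agents thus coincided with a smaller Pfkl share, and the muscle type Pfkm stayed at 2.11% or less in every library. The family sum in WT overlapped that of every other group, at means of 167 TPM ± 6.98 in WT, 172 ± 2.36 in WTL, 162 ± 3.07 in WT + JSH23 and 174 ± 1.71 in WTL + JSH23.

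Pfkfb3 encodes the bifunctional enzyme with the strongest bias toward making fructose 2,6-bisphosphate, the main activator of phosphofructokinase 1 (GRCm38 chr2:11471433-11554077, minus strand). It stood at 588, 541 and 573 CPM in WT and at 591, 596 and 579 CPM in WTL. In cells given JSH-23 it lay at 433, 441 and 407 CPM in WT + JSH23 and at 465, 463 and 438 CPM in WTL + JSH23. The 6 libraries with JSH-23 were all below the 6 without it. JSH-23 lowered Pfkfb3 by 0.41 ± 0.04 without LPS (adjusted p = 3.18e-08) and by 0.37 ± 0.04 under LPS (adjusted p = 1.21e-07). The LPS changes were 0.05 ± 0.04 (adjusted p = 0.259) and, after JSH-23, 0.09 ± 0.04 (adjusted p = 0.0577), and both turned negative by limma on log2(TPM + 1), to -0.28 (adjusted p = 0.000531) and -0.09 (adjusted p = 0.176). The change after JSH-23 was called without WTL + JSH23 replicate 3, at 0.12 (adjusted p = 0.0172), without WT + JSH23 replicate 2, at 0.12 (adjusted p = 0.0365), or without WT replicate 5, at 0.09 (adjusted p = 0.0468). Pfkfb3 made up 90.9% ± 0.92 of the PFKFB family TPM in WT and 96.2% ± 0.15 in WTL, where Pfkfb4, a family member with more balanced activities, fell by 1.61 (adjusted p = 4.18e-14).

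Pkm encodes the muscle-type pyruvate kinases M1 and M2, splice forms that a gene-level table cannot separate (GRCm38 chr9:59656368-59679375, plus strand). It stood at 817, 794 and 834 CPM in WT and at 695, 699.5 and 726 CPM in WTL. The JSH-23 libraries were at 963, 919 and 985 CPM in WT + JSH23 and at 865, 826 and 904 CPM in WTL + JSH23. LPS lowered Pkm by 0.20 ± 0.04 without JSH-23 (adjusted p = 0.000111) and by 0.14 ± 0.04 after it (adjusted p = 0.00406). JSH-23 raised it by 0.23 ± 0.04 without LPS (adjusted p = 5.98e-05) and by 0.29 ± 0.04 under LPS (adjusted p = 2.61e-06). The largest of these steps was 1.22-fold, yet no groups compared overlapped. The liver and red-cell gene Pklr was listed at 0 in all 12 libraries. Reads of Pkm, Pfkp and Slc16a3 were partly shared out among genes by the estimation, since their counts were fractional in 12, 12 and 10 libraries.

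Ldha encodes the lactate dehydrogenase subunit that favours lactate formation (GRCm38 chr7:46841475-46855627, plus strand). It stood at 289, 277 and 284 CPM in WT and at 279, 273 and 261 CPM in WTL. After JSH-23 it stood at 203, 209 and 213 CPM in WT + JSH23 and at 192, 193 and 177 CPM in WTL + JSH23. As for Pfkl and Pfkfb3, the libraries with and without JSH-23 did not overlap, and JSH-23 lowered Ldha by 0.44 ± 0.04 without LPS (adjusted p = 8.44e-09) and by 0.53 ± 0.04 under LPS (adjusted p = 4.65e-10). LPS lowered it by 0.15 ± 0.04 after JSH-23 (adjusted p = 0.00321), and the LPS change without JSH-23 was -0.06 ± 0.04 (adjusted p = 0.164). The latter was called with upper quartile scaling, at -0.146 (adjusted p = 0.00359), and by limma on log2(TPM + 1), at -0.402 (adjusted p = 4.12e-06). Ldha held 95.35% to 97.15% of the TPM of Ldha and Ldhb in every library.

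The members just before and after the branch to lactate thus changed in opposite directions with JSH-23: Pkm was higher and Ldha lower in both comparisons. In TPM, the means went from 624 to 729 for Pkm and from 348 to 254 for Ldha between WT and WT + JSH23. Under LPS they went from 427 to 571 for Pkm and from 263 to 199 for Ldha.

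Slc16a3 encodes MCT4, the carrier that exports lactate from highly glycolytic cells (GRCm38 chr11:120948480-120960868, plus strand), and it was the member most reduced by LPS. It stood at 89.2, 73.0 and 89.2 CPM in WT and at 60.01, 51.8 and 48.6 CPM in WTL. Given JSH-23, it was at 85.3, 92.0 and 87.7 CPM in WT + JSH23 and at 61.0, 59.8 and 54.7 CPM in WTL + JSH23. LPS lowered it by 0.64 ± 0.07 without JSH-23 (adjusted p = 1.3e-07) and by 0.59 ± 0.07 after it (adjusted p = 6.35e-07), with no overlap in either. The JSH-23 changes were 0.08 ± 0.07 without LPS (adjusted p = 0.419; 95% interval -0.06 to 0.22) and 0.13 ± 0.08 under LPS (adjusted p = 0.176; 95% interval -0.02 to 0.28). Leaving out WTL replicate 4 brought the latter to 0.22 (adjusted p = 0.029). Slc16a3 held 92.3% to 94.5% of the TPM of Slc16a1, Slc16a3 and Slc16a7 by group mean, and Slc16a1, which encodes the lactate carrier MCT1, rose with JSH-23 by 1.00 without LPS (adjusted p = 1.58e-06) and 0.45 under LPS (adjusted p = 0.00721) from a low level of 1.83 TPM in WT.

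**Figure D3:**
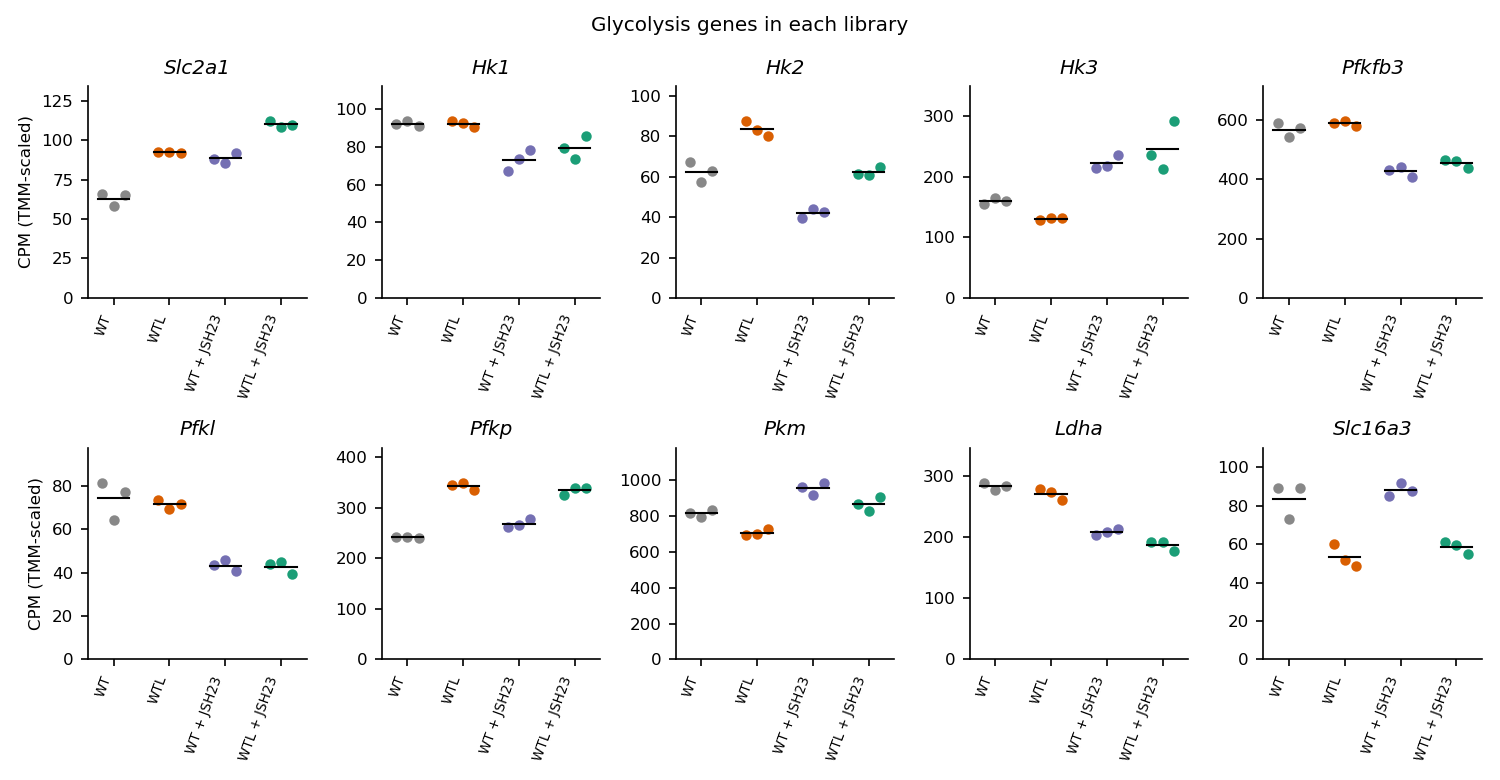
CPM of each gene in each library (points, replicates in numerical order) with the group mean (line), axes from 0. Pfkfb3, Pfkl and Ldha fall into a lower pair of groups with JSH-23 and a higher pair without it, Slc16a3 into a lower pair with LPS, and the highest Slc2a1 values, 108 to 112 CPM, are in WTL + JSH23.

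The interaction compares the LPS change after JSH-23 with that in its absence. It was called for 3 of the 10 genes, 1 upward (Hk3) and 2 downward (Slc2a1 and Pfkp), beside 9.54% and 8.44% of all genes and 32.9% of the abundant ones in either direction. The smaller LPS increase after JSH-23 was -0.24 ± 0.07 for Slc2a1 (adjusted p = 0.0151) and -0.19 ± 0.05 for Pfkp (adjusted p = 0.0111). By limma on log2(TPM + 1) these were -0.11 (adjusted p = 0.352) and -0.03 (adjusted p = 0.714), while that of Hk3 was 0.57 and kept its call. For the other 7 genes the interaction was between -0.09 and 0.15 with adjusted p of 0.226 or more, and by limma on log2(TPM + 1) that of Hk1 was called, at 0.262 (adjusted p = 0.0418).

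How the libraries are scaled matters for the LPS comparisons. TMM factors were 0.86 to 0.88 in WTL and 1.08 to 1.10 in WT, and TPM makes no such correction. By limma on log2(TPM + 1), the median of all genes tested was -0.26 for LPS without JSH-23 (-0.05 with TMM) and -0.16 after JSH-23 (-0.02 with TMM). On that scale 2 of the 10 genes were called higher and 7 lower with LPS, in place of 3 and 3, and 2 higher and 4 lower after JSH-23. Hk2 with LPS, at 0.115 (adjusted p = 0.185), and Slc2a1 with LPS after JSH-23, at 0.103 (adjusted p = 0.116), were not called by TPM, and the LPS increases of Slc2a1 and Pfkp without JSH-23 were 0.215 (adjusted p = 0.00305) and 0.156 (adjusted p = 0.000791). Relative to the median of all genes, Slc2a1, Hk2 and Pfkp lay above it with LPS on both scales (0.60, 0.47 and 0.56 with TMM; 0.48, 0.38 and 0.42 with TPM) and Hk3, Pkm and Slc16a3 below it (-0.25, -0.16 and -0.60; -0.40, -0.29 and -0.66). JSH-23 comparisons moved less: the calls were 4 higher and 5 lower without LPS on both scales, and 4 and 4 under LPS by TPM in place of 3 and 5.

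**Figure D4:**
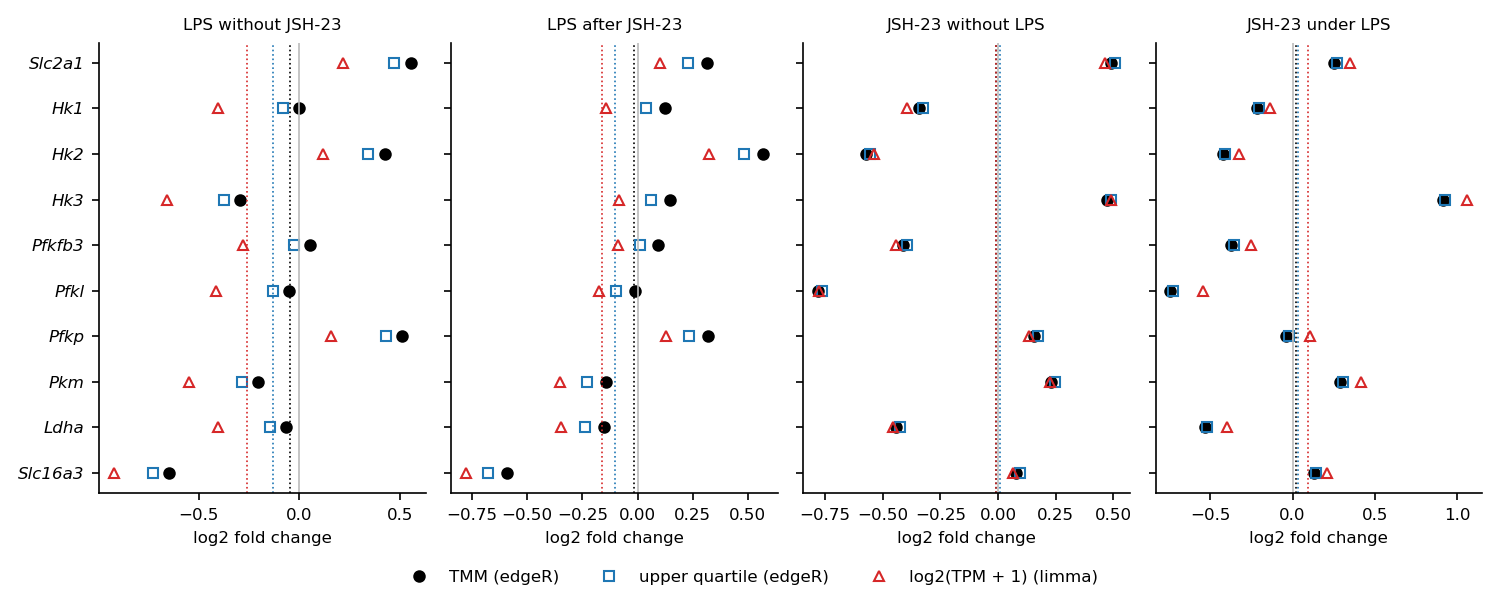
Log2 fold change of the 10 genes under 3 scalings (TMM and upper quartile in edgeR, log2(TPM + 1) in limma), with the median of all 14357 genes in each as a dotted line; axes differ between panels. In the LPS panels the TPM points and their median (-0.26 and -0.16) lie to the left of the TMM ones, and in the panel for JSH-23 without LPS the scalings nearly coincide.

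The other genes of the pathway were likewise split in direction. Of 33 further genes for glucose uptake, glycolytic enzymes, their isozymes and lactate transport, 26 passed the filter. LPS raised 7 and lowered 11 of them without JSH-23, and raised 4 and lowered 8 after it. JSH-23 raised 4 and lowered 9 without LPS, and raised 9 and lowered 9 under LPS. Among all genes tested, LPS had 31.0% called higher and 34.7% lower without JSH-23, and 27.4% and 27.1% after it. JSH-23 had 18.8% higher and 22.1% lower without LPS, and 24.5% and 24.2% under LPS. Counts for the lists that follow, cell type markers included, stand beside the same shares. All these counts use the TMM scale, and for some genes the direction with LPS is different in TPM. The 26 genes had median log2 changes of -0.11 and -0.08 for the LPS comparisons. For JSH-23 their medians were -0.10 without and -0.01 under LPS. The medians of all genes were -0.05, -0.02, -0.01 and 0.02 in the same order.

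Between phosphofructokinase and pyruvate kinase, members of a step could differ in sign. Eno1, the main enolase, fell with LPS by 0.18 (adjusted p = 0.000127), while Eno2, the neuronal-type enolase, rose by 0.93 (adjusted p = 8.37e-10) and after JSH-23 by 1.18 (adjusted p = 8.59e-12). Eno2 averaged 20.6 TPM in WT and 28.4 in WTL, against 377 and 262 TPM for Eno1. With JSH-23, Pgam1, a phosphoglycerate mutase, rose by 0.30 without LPS (adjusted p = 3.34e-06) and by 0.39 under LPS (adjusted p = 6.05e-08), and Aldoa, an aldolase, by 0.18 (adjusted p = 0.000227) and 0.15 (adjusted p = 0.00148). Tpi1, triosephosphate isomerase, fell by 0.28 (adjusted p = 0.00245) and 0.25 (adjusted p = 0.00726). Pgk1, phosphoglycerate kinase, was called in none of the 4 comparisons. Gapdh was called higher with LPS at 0.18 (adjusted p = 0.000197), although its TPM mean was 1275 in WT and 1177 in WTL, so its direction depends on the scaling. The same held for Bsg, at TPM means of 176 in WT and 149 in WTL, and Tigar, at 9.10 and 8.71. Slc2a6, Pfkm, Eno2 and Slc16a1, also called higher with LPS, had higher means in TPM as well.

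**Figure D5:**
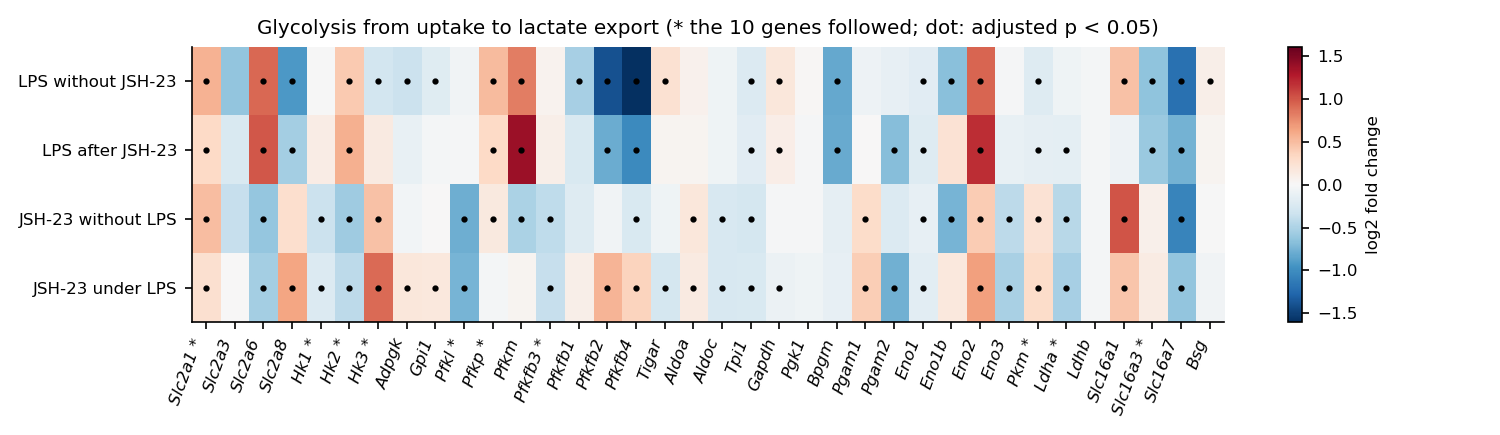
Log2 fold change (colour, edgeR with TMM) of the 10 genes (asterisks) and the 26 other tested genes of the pathway, ordered from glucose uptake to lactate export; dots mark an adjusted p below 0.05. The strongest decrease is Pfkfb4 with LPS (-1.61), and neighbouring steps and isozymes differ in sign within each row.

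Some genes that decide where pyruvate goes changed by more than 2-fold with JSH-23. Of 14 genes for mitochondrial pyruvate entry, 13 passed the filter, and JSH-23 raised 3 and lowered 3 without LPS and raised 3 and lowered 6 under LPS. Pdk3, a kinase that inhibits pyruvate dehydrogenase, fell by 1.12 ± 0.06 (adjusted p = 2.32e-12) and 1.15 ± 0.06 (adjusted p = 1.47e-12). Pcx, pyruvate carboxylase, rose by 1.11 ± 0.07 (adjusted p = 2.52e-11) and 1.51 ± 0.07 (adjusted p = 2.55e-13). LPS raised 5 and lowered 5 of these genes: Pdk2 and Pdk1, kinases of the same family, fell by 1.17 (adjusted p = 2.57e-05) and 0.82 (adjusted p = 1.07e-05), and Dld, a shared subunit of the 2-oxoacid dehydrogenases, rose by 0.80 (adjusted p = 5.51e-13).

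Side branches also held called genes. All 8 genes of the pentose phosphate pathway, which draws on glucose 6-phosphate, were tested. LPS raised 1 of them and lowered 6, with H6pd, its enzyme in the endoplasmic reticulum, falling by 1.79 (adjusted p = 4.83e-16). JSH-23 without LPS raised 4 and lowered 4, and Taldo1, transaldolase, rose by 0.62 (adjusted p = 5.3e-11) and under LPS by 0.66 (adjusted p = 2.16e-11). Of 11 glycogen genes, LPS raised 3 and lowered 5, and JSH-23 raised 4 and lowered 2 both without and under LPS, with Gbe1, the branching enzyme, at 0.62 (adjusted p = 1.13e-09) and 0.85 (adjusted p = 8.62e-12). Of 7 gluconeogenesis genes only Pck2 and G6pc3 passed the filter; Pck2, mitochondrial PEP carboxykinase, rose with JSH-23 by 0.93 (adjusted p = 2.82e-09) and 1.38 (adjusted p = 1.91e-10).

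Of 16 regulators of the pathway, 15 passed the filter. Hif1a, the oxygen-regulated activator of many glycolytic genes, averaged 133 TPM ± 4.04 in WT (SD, n = 3), 209 ± 10.04 in WTL, 164 ± 6.48 in WT + JSH23 and 265 ± 12.9 in WTL + JSH23, and LPS raised it by 1.00 without JSH-23 (adjusted p = 8.8e-15) and by 0.88 after it (adjusted p = 1.28e-13). Vhl, which directs HIF-1α for degradation, fell with LPS by 1.12 (adjusted p = 5.95e-14) and 0.81 (adjusted p = 2.96e-11). Egln3, an oxygen-sensing prolyl hydroxylase, rose by 1.43 (adjusted p = 0.0009) and 1.53 (adjusted p = 0.00106) from under 1 TPM on average. Txnip, an arrestin that restrains glucose uptake through GLUT1, averaged 130.1 TPM ± 5.51 in WT and 28.8 ± 1.77 in WT + JSH23. Its change with JSH-23 was -2.24 ± 0.06 without LPS (adjusted p = 5.42e-17) and -2.19 ± 0.07 under LPS (adjusted p = 3.68e-16), the largest of any pathway or regulator gene named here. In all, LPS raised 5 and lowered 6 of the regulators, and JSH-23 raised 2 and lowered 5 without LPS and raised 1 and lowered 3 under LPS.

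Across the 12 libraries, Pearson's r of log2 CPM between the 5 members that fell with JSH-23 ran from 0.517 for Hk2 and Ldha to 0.97 for Pfkfb3 and Pfkl. It was 0.96 for Pfkl and Ldha, 0.90 for Pfkfb3 and Ldha, 0.790 for Hk1 and Hk2 and 0.668 for Hk2 and Pfkl. Hk3 stood opposite to all 5, with r of -0.673 for Hk1, -0.666 for Hk2, -0.92 for Pfkfb3, -0.92 for Pfkl and -0.91 for Ldha. Pfkp and Slc16a3, which followed LPS, had r = -0.88. The 12 points are 4 groups of 3, so these values describe mostly group means. Among protein-coding genes, the patterns most like those of members were those of Anxa7, Cd14 and Il12b for Pfkp (r = 0.997, 0.996 and 0.995), Ttc39c for Slc2a1 (0.993), Iigp1 for Ldha (0.990), Actr1b for Hk3 (0.990), Myo1c for Hk2 (0.987), Dock2 for Pfkfb3 (0.986), Kif1c for Pkm (0.986), Inpp5j for Slc16a3 (0.979), Papss1 for Pfkl (0.976) and Thrap3 for Hk1 (0.931).

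Upstream sequence is shown for some of the members that moved together with JSH-23 or stood opposite. The 250 bases before each RefSeq start (GRCm38.p6) were searched on both strands for ACGTG, the core of the hypoxia response element, for CACGTG, the E-box that contains ACGTG on both strands, and for the κB consensus. Hk2, Pfkfb3 (the start nearer the gene's end) and Ldha fell with JSH-23, Hk3 rose, and Pfkp rose with LPS. Hk1 and Pfkl also fell with JSH-23 but are not printed, and their windows held no ACGTG. The other window of Pfkfb3, not printed, held ACGTG but not CACGTG. Capitals mark ACGTG on either strand, and each sequence reads 5′ to 3′ on the gene's strand. Ldha has 2 starts in the table and both windows are shown. The 20 bases after the first start were in no GENCODE M21 transcript of Ldha, while those after the second start, and after every other start of the 10 genes, were.
Hk2, chr6:82774455-82774704, minus strand: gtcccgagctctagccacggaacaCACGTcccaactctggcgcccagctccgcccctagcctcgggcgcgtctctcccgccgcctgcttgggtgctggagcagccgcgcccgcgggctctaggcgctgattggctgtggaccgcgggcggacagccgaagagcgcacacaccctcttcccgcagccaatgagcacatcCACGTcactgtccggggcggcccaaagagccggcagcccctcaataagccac
Pfkfb3, chr2:11502091-11502340, minus strand: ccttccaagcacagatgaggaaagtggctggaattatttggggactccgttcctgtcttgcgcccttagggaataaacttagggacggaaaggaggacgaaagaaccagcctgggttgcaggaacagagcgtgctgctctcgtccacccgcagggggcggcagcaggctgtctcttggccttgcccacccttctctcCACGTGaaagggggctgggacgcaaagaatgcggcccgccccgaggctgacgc
Ldha, first start, chr7:46845554-46845803, plus strand: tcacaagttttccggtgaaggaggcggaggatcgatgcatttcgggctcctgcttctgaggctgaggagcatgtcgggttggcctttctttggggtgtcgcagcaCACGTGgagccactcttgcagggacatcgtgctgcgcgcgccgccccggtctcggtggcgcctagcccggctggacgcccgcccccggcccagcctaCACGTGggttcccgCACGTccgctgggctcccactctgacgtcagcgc
Ldha, second start, chr7:46846832-46847081, plus strand: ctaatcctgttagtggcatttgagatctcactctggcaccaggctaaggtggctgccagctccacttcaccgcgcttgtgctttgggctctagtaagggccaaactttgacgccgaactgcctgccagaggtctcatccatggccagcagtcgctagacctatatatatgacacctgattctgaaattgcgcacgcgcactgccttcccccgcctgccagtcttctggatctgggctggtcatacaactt
Hk3, chr13:55021386-55021635, minus strand: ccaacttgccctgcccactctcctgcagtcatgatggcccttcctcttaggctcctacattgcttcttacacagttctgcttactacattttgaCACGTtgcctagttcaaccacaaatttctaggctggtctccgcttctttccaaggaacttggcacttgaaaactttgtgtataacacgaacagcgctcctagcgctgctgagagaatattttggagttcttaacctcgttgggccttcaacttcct
Pfkp, chr13:6648772-6649021, minus strand: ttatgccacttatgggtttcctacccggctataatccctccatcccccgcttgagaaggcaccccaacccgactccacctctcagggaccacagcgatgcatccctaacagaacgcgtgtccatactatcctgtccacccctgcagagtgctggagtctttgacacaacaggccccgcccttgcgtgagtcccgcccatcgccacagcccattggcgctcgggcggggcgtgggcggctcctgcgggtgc

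The table held 14 such windows for the 10 genes. Some lay partly inside exons of GENCODE M21 transcripts, with 208 such bases in 1 window of Pkm, 186 in 1 of Hk1 and 148 in 1 of Pfkfb3. The windows printed above held 11 such bases or fewer. ACGTG was in 8 of the 14, belonging to 7 of the 10 genes, against 16.6% of all 32851 windows and 23.0% of the windows with at least 60% GC, where 7 of 10 member windows held it. Ldha counted through its first window alone, and without that window ACGTG was in 7 of 13 windows, belonging to 6 genes. The windows of Hk1, Pfkl and Pfkp held none. CACGTG was in 2 of the 14 (Pfkfb3 and the first window of Ldha; 1 of 13 without the latter) against 6.02% of all windows, and the κB consensus was in 0 of the 14 against 7.25%. Of the windows with at least 60% GC, 9.32% held CACGTG and 12.1% the κB consensus, beside 2 and 0 of the 10 member windows. Members with the motif include genes that rose and genes that fell with either agent, and no binding was measured in these libraries.

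Cell type markers also held genes called with LPS and with JSH-23. Of 12 dendritic cell markers, LPS raised 9 and lowered 2, and JSH-23 raised 3 and lowered 5 without LPS and raised 2 and lowered 9 under LPS. Those calls are on the TMM scale. In summed TPM the dendritic cell list was lower in WTL, at 26260 to 27057, than in WT, at 27627 to 28523. It was 26406 to 26906 in WT + JSH23 and 25117 to 26661 in WTL + JSH23. Of 12 macrophage markers, 1 rose and 9 fell with JSH-23 without LPS. Under LPS 2 rose and 9 fell with JSH-23, with Cx3cr1 at -3.14 (adjusted p = 1.47e-16) without LPS and -3.18 (adjusted p = 4.38e-13) under it. The summed TPM of that list was 3319 to 3451 in WT, 2719 to 2887 in WTL, 2321 to 2394 in WT + JSH23 and 1998 to 2054 in WTL + JSH23, and none of its genes was at 0 in any group. Neutrophil markers summed to 384 to 396 TPM in WT, 332 to 345 in WTL, 332 to 357 in WT + JSH23 and 279 to 299 in WTL + JSH23, with Mmp8, S100a9 and S100a8 the most abundant (up to 172, 104 and 98.7 TPM) and Ly6g, Elane, Cxcr2 and Retnlg at 1.03 TPM or less. Of the 8 neutrophil markers tested, JSH-23 lowered 3 without LPS and all 8 under LPS and raised 0 in either case. Hk3, itself expressed in granulocytes and macrophages, was higher with JSH-23 while the summed levels of the macrophage and neutrophil lists were lower. Cd68, a lysosomal macrophage marker, was among the genes most like Hk3 (r = 0.986). Cd68 was an exception in its list: it was the 1 macrophage marker that rose with JSH-23 without LPS (0.346). Under LPS it was 1 of the 2 that rose (0.515), and 9 fell in each comparison. The part of these cells in the results was not tested, and in bulk RNA fewer cells of a type cannot be told apart from less RNA per cell.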

How the data were processed

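The authors aligned paired-end reads of 12 BMDC libraries to mm10 with STAR (2.6.0c in the submitters' processing notes) and quantified genes with RSEM. They deposited expected counts, TPM, FPKM and mean transcript lengths (in bases, other than expression values) per gene. FPKM values were not used. The GENCODE release and strand setting are not given in the sources used here, and the labels and methods name different RNA selection kits. Gene names and positions came from GENCODE M21 (GRCm38) and promoter sequences from RefSeq (GRCm38.p6).

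Expected counts were rounded, filtered with filterByExpr and scaled by TMM, and all 12 libraries were fitted with 1 mean per group (8 residual degrees of freedom) by edgeR 4.0.16 in R 4.3.3. The interaction is the difference between the LPS comparisons. Alternatives used other scalings and filters, DESeq2 1.42.0, limma 3.58.1 on log2(TPM + 1) and log2(TPM + 0.1), a replicate block, only the groups compared, and each library left out. The script was tested on simulated data. Tables and figures used Python 3.11.15, pandas 2.3.3 and matplotlib 3.10.9. The methods state separate biological replicates, without saying which libraries share a culture day. Members and gene lists were chosen with earlier results of these data known. Genes named are all 10 members, any of the further glycolysis genes, and from other lists the 3 with the largest change among those called in a comparison; the other 3 most similar genes per member follow Pearson's r of log2 CPM (prior count 2). A few genes that these rules name are not reported here. Depth limits precision only by counting error, which is small at these counts.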

Additional observations from a re-analysis of the deposited data

Results flagged for a closer look

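For 3 of the 10 genes the LPS change after JSH-23 was unlike that in its absence by the test of the difference itself (edgeR, interaction, adjusted over all genes). Of all genes at least as abundant as the lowest member, 32.9% were called in that test, a share close to that of the members. For Hk3 the difference was 0.44 on the log2 scale (adjusted p = 0.00504): LPS lowered it by 0.29 without JSH-23, and the change after JSH-23 was 0.15. For Slc2a1 it was -0.24 (adjusted p = 0.0151), from an increase of 0.55 to one of 0.31. For Pfkp it was -0.19 (adjusted p = 0.0111), from an increase of 0.51 to one of 0.32. All 3 kept their call when any 1 of the 12 libraries was left out, with adjusted p of 0.000139 to 0.0173 for Hk3, 0.0118 to 0.0485 for Slc2a1 and 0.00623 to 0.0428 for Pfkp, but with limma on log2(TPM + 1) only that of Hk3 did. On that scale the difference was -0.112 for Slc2a1 (adjusted p = 0.352) and -0.029 for Pfkp (adjusted p = 0.714).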

How the results depend on the processing

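Every count of called members and of called genes stayed within 1.5 times its main value under every alternative run. Leaving out 1 library gave 6 to 7 members called for LPS, 6 to 8 for LPS after JSH-23, 8 to 9 for the JSH-23 comparison with LPS present, 9 for JSH-23 without LPS and 3 for the interaction. With the replicate block the members called were 6, 9 (6 higher, 3 lower) and 3 for LPS, LPS after JSH-23 and the interaction, the added calls being Hk1 (0.13, adjusted p = 0.0211), Hk3 (0.14, 0.0159) and Pfkfb3 (0.09, 0.0258). Genes called were then 9539, 7960 and 2968. Same-numbered libraries correlated at 0.014 to 0.061 in their deviations from the group means, and libraries of unlike number at -0.056 to 0.036. All these values are small, but the same number was usually the better match. The main fit did not treat the libraries as pairs, and the fit with the replicate block did. The exceptions were WT + JSH23 replicate 1 and WTL + JSH23 replicate 2, which correlated better with each other than with their own number. Their correlation was 0.036, against 0.014 for the 2 libraries numbered 1 and 0.023 for the 2 numbered 2.

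Among member values, 959 under alternatives kept direction and side of the threshold, 25 gained a call and 10 lost one with the same sign, and 26 changed sign, 6 of which gained a call. By limma on log2(TPM + 1) and log2(TPM + 0.1), Pfkfb3 with LPS was -0.281 and -0.282, Hk1, Hk3 and Pfkfb3 with LPS after JSH-23 were -0.141 and -0.145, -0.086 and -0.086, and -0.089 and -0.090, Pfkp with JSH-23 under LPS was 0.105 in both, and the interaction of Ldha was 0.055 in both. Hk1 with LPS was 0.034 by DESeq2 size factors and by DESeq2 and 0.011 with only the groups compared. Pfkfb3 with LPS was -0.029 by upper quartile scaling. Leaving out 1 library gave ranges across 0 for Hk1 (-0.011 to 0.011) and Pfkl (-0.150 to 0.020) with LPS, Pfkl with LPS after JSH-23 (-0.057 to 0.038), Slc16a3 with JSH-23 (-0.015 to 0.125) and the interactions of Pfkl (-0.034 to 0.137) and Slc16a3 (-0.009 to 0.144). By log2(TPM + 1) the share of called genes that were higher was 19.7% for LPS (47.2% in the main fit), 25.0% (50.3%) when it followed JSH-23, 68.3% (50.3%) in the JSH-23 comparison with LPS present and 79.5% (53.1%) in the interaction, and with upper quartile scaling it was 37.7% for LPS after JSH-23. The cause was not tested. DESeq2 called 5 members higher and 3 lower for LPS after JSH-23.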

Other observations

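The summed CPM of the 10 genes was 2364 to 2488 in WT, 2415 to 2448 in WTL, 2392 to 2459 in WT + JSH23 and 2380 to 2505 in WTL + JSH23, so the 4 groups overlapped although 9 of the 10 genes were called with JSH-23 without LPS. In TPM the sums were 1586 to 1695, 1230 to 1279, 1619 to 1646 and 1345 to 1410. The pentose phosphate genes summed to 1876 to 1926 TPM in WT, 1399 to 1486 in WTL, 2293 to 2386 in WT + JSH23 and 1854 to 1937 in WTL + JSH23. For Hk1 the mean transcript length estimated by RSEM was 3285 to 3461 bases in WT, 3539 to 3597 in WTL, 3455 to 3612 in WT + JSH23 and 3630 to 3742 in WTL + JSH23, with every library with LPS above those of its control group.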
